A study of Rattus norvegicus with 15 samples.

Results

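Femurs of ovariectomised rats given an extract of Juglans regia (walnut), group J, were compared with femurs of ovariectomised rats given saline, group OVX. The libraries were chosen by their titles, J 1 to J 3 and OVX 1 to OVX 3, and make up 6 of the 15 libraries of the series, with 3 in each group. All were from female rats of the SD strain that were 8 weeks old at the start, lost both ovaries and then had 6 weeks of recovery. Rats of group J then received 1.6 g of the extract per kg per day by gavage for 8 weeks, and rats of group OVX received the same volume of saline over that time. Both groups therefore share the ovariectomy, and the saline group stands for ovariectomy without extract. The study asks, by its title, how these plants act on osteoporosis caused by ovariectomy. The other 9 libraries, used here only where named, came from sham-operated rats on saline (Sham), from ovariectomised rats on 2.4 g of Psoralea corylifolia extract per kg per day (P), and from ovariectomised rats on 4.0 g of both extracts combined per kg per day (PJ). The labels give the tissue as femur without saying which part, and they do not state that each library is a separate rat, so p-values refer to the spread among these 6 libraries.

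A femur holds bone cells, fat, vessels and the red marrow in which blood cells form. Osteoblasts lay down a matrix of type I collagen and osteocalcin, osteoclasts dissolve it, and the balance is set in part by RANK ligand, its receptor RANK and the decoy receptor osteoprotegerin. Loss of estrogen is known to speed up this turnover. In the same marrow space, megakaryocytes shed platelets and erythroblasts make hemoglobin, both under the transcription factor GATA1.

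Expression was measured as FPKM, which scales reads by gene length and library size, and 13767 genes whose FPKM averaged 1 or more over the 6 libraries were tested with limma on log2(FPKM + 1). Fold changes below are differences on that scale, J minus OVX, with the standard error (SE) of the fit. A gene was called when its p-value, adjusted over all genes tested, was under 0.05. Values of single libraries follow the order of replicates 1, 2 and 3. Inferred library totals, in units of 1000000 reads, were 36.1, 41.5 and 48.1 in J and 40.7, 42.8 and 41.1 in OVX.

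In short, most genes listed for platelets, red cell precursors and heme synthesis fell in J, as did part of those of cell division. Most fibrillar collagens rose, as did part of the genes of matrix, osteoblasts, osteoclasts and blood vessels. In all, 661 genes rose in J (4.80% of those tested) and 606 fell (4.40%), which makes 1267 in either direction (9.20%), and the median fold change of all genes was 0.08. The limma fit of all 15 libraries called 505 (3.67%) and 439 (3.19%), and limma without the filter on low values called 131 and 188. Scaling by median ratios gave 579 higher and 898 lower genes, so that 39.2% of calls were on the higher side against 52.2% as reported. The number of calls depended strongly on which library was left out. In limma 0 genes passed without J 1 and 0 without OVX 2 (3400 and 2908 at an unadjusted p under 0.05). The smallest adjusted p in these 2 fits was 0.0503 and 0.0894. Only 3 passed without J 3 and 1 without OVX 1, whereas 1518 passed without J 2 and 1060 without OVX 3. All 1267 called genes kept their sign and an unadjusted p under 0.05 in each of these 6 fits. They were selected on the same 6 libraries, so this is not independent support. For each call named below the direction was kept, and an adjusted p under 0.05 was not kept in all 6 fits.

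**Figure D1:**
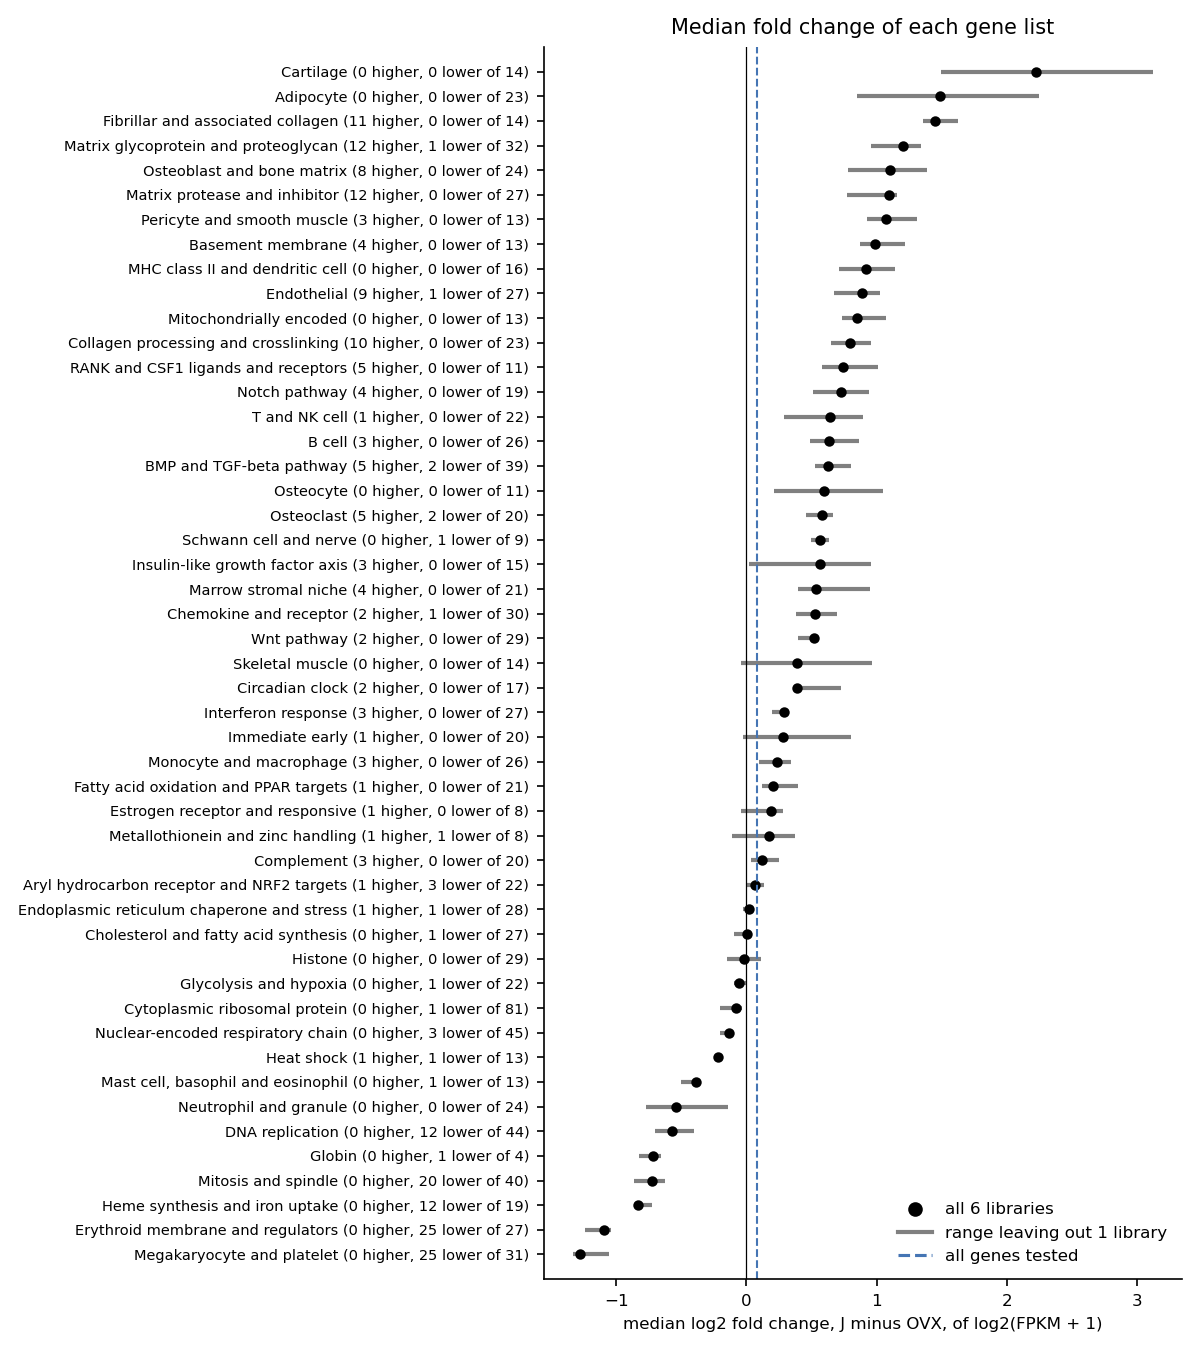
Median log2 fold change of each gene list, J minus OVX (x axis, difference of log2(FPKM + 1)), with its range when each of the 6 libraries is left out in turn and, in brackets, the members called. The cartilage and adipocyte lists have the highest medians and the longest ranges with 0 members called, and the platelet, erythroid and heme lists lie at the low end with short ranges.

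The 300 bases around the start of 4 genes are shown because each gene was called and its window holds the motif of a factor known for its group: Gp6 and Gp5, platelet receptors that fell with AGATAA (the core bound by GATA factors), Bglap, an osteoblast gene that rose with AACCACA (the core bound by RUNX factors), and Gclm, a glutathione gene that fell with TGACNNNGC (the core of the antioxidant response element bound by NRF2). These 4 were chosen after their values were seen. Each window runs 5′ to 3′ along the gene from 250 bases before its start to 50 after it, from RefSeq on build GRCr8, and capitals mark the motif as read on that strand.
Gp6, chr1:78508258-78508557, plus strand: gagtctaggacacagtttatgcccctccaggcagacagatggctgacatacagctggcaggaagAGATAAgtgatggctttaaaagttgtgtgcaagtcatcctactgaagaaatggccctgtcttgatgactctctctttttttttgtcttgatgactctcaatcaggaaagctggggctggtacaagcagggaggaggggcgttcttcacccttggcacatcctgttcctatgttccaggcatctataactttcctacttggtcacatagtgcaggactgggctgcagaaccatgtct
Gp5, chr11:83948257-83948556, plus strand: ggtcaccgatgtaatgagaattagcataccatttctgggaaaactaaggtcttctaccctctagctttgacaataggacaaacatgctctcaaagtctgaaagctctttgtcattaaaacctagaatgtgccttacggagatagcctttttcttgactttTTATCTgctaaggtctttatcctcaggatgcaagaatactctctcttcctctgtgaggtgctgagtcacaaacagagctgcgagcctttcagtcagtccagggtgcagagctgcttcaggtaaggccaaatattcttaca
Bglap, chr2:176137269-176137568, minus strand: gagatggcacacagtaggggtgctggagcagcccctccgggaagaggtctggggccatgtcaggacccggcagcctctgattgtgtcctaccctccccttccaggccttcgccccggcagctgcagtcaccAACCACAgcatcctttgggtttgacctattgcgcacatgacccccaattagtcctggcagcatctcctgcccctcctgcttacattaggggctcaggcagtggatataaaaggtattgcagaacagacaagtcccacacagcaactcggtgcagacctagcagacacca
Gclm, chr2:213031885-213032184, plus strand: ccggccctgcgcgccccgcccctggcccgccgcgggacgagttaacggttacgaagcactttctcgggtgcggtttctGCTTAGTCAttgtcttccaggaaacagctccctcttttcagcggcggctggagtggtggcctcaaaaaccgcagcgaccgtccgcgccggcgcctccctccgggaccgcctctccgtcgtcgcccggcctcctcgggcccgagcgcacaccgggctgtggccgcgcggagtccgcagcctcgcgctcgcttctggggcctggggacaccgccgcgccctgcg
Both strands were searched, and the capitals of Gp5 and Gclm hold their motif on the other strand. TGACNNNGC also stood once, on the other strand, in the windows of Bglap and Gp5, where it is not in capitals. AGATAA stood in the windows of 6 of 18 called platelet genes with a window (33.3%) and of 4 of 17 called erythroid genes (23.5%). It stood in 49 of 444 genes that fell (11.0%) and 17 of 482 that rose (3.53%). The share was 6.31% over 9703 genes tested and 11.3% over all 27457 windows. AACCACA stood in 1 of 5 called osteoblast genes, in 24 of the 482 genes that rose (4.98%) and in 20 of the 444 that fell (4.5%). Its share was 3.93% over the genes tested and 5.47% over all windows. TGACNNNGC stood in 1 of the 4 called genes of the aryl hydrocarbon receptor and NRF2 list and in 3 of the 5 called osteoblast genes. It stood in 78 of the 444 genes that fell (17.6%) and in 77 of the 482 that rose (16%), with 14.8% over the genes tested and 12.2% over all windows. A match describes these letters only, and a gene without one may carry the motif elsewhere.

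Most platelet and megakaryocyte genes were lower in J. Of the 31 members tested, 25 fell, 0 rose and 6 were not called, and 27 had every J library below every OVX library (15.2% of all genes tested did). Their median log2 fold change was -1.28 (-1.33 to -1.05 when 1 library was left out), and the summed FPKM of the list was 1328 to 1512 in J and 2949.9 to 4419 in OVX. The fit of 15 libraries kept 11 of the list below the threshold. Mmrn1, the platelet granule protein multimerin, had 13.3, 11.0 and 8.12 FPKM in J, against 58.1, 39.0 and 37.3 FPKM in OVX, a fold change of -1.95 ± 0.23 (adjusted p = 0.0180). F5, coagulation factor V, had 18.3, 14.8 and 11.2 FPKM in J, against 66.8, 45.2 and 42.4 FPKM in OVX (-1.73 ± 0.23, adjusted p = 0.0196). Ppbp, a chemokine of platelet granules, had 219, 145 and 184 FPKM in J, against 1018, 604 and 508 FPKM in OVX (-1.91 ± 0.28). OVX 1 was the highest library for all 3 of these genes, and the groups did not overlap. Tubb1, the tubulin that forms the platelet's marginal band, had 30.3, 22.1 and 21.5 FPKM in J, against 92.4, 69.0 and 77.5 FPKM in OVX (-1.66 ± 0.18). Clec1b, the receptor CLEC-2 on platelets, had 43.8, 51.2 and 53.6 FPKM in J, against 152, 118 and 117 FPKM in OVX (-1.35 ± 0.15). Pde5a, a cyclic GMP phosphodiesterase (-1.71 ± 0.21), Rab27b, which secretes dense granules (-1.70 ± 0.27), Itgb3, the beta chain of the fibrinogen receptor (-1.66 ± 0.26), and Ltbp1, which holds latent TGF-beta (-0.86 ± 0.12), fell as well. The receptors whose promoters are printed, Gp6 and Gp5, had 13.5, 13.0 and 9.02 FPKM in J, against 49.2, 32.6 and 33.3 FPKM in OVX for Gp6 (-1.61 ± 0.21) and 24.2, 19.5 and 16 FPKM in J, against 79.1, 57.9 and 50.4 FPKM in OVX for Gp5 (-1.60 ± 0.21). Of the genes named here, Mmrn1, F5, Tubb1, Pde5a, Rab27b, Gp6 and Gp5 also passed in the fit of 15 libraries. Thbs1, thrombospondin 1, which platelets store and which stands in the matrix list, fell too (-1.35 ± 0.19, adjusted p = 0.0225). It is named after its value was seen. Gp1bb was listed at 0 in all 6 libraries. In a bulk sample fewer cells of a type and less RNA per cell cannot be told apart, here and below.

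Genes of red cell precursors were lower in J as well. Of 27 genes of the erythroid membrane and its regulators, 25 fell and 0 rose (median -1.10, -1.24 to -1.04 with 1 library left out), and summed FPKM was 3102 to 3637 in J and 6323 to 8079 in OVX. The fit of 15 libraries called 3 of them lower. Car1, a carbonic anhydrase of red cells, had 257, 200.3 and 261 FPKM in J, against 849, 695 and 739 FPKM in OVX (-1.67 ± 0.16, adjusted p = 0.0180). Rhag, the Rh-associated ammonia channel, had 57.3, 71.3 and 60.8 FPKM in J, against 162, 173 and 133 FPKM in OVX (-1.29 ± 0.15). Gata1, the regulator of both lineages, had 37.6, 33.5 and 41.2 FPKM in J, against 96.0, 80.0 and 76.6 FPKM in OVX (-1.15 ± 0.14, adjusted p = 0.0180). Gfi1b, a repressor needed by both, had 31.0, 27.4 and 27.0 FPKM in J, against 70.1, 67.4 and 63.1 FPKM in OVX (-1.20 ± 0.11). The 3 J values of each of these genes lay below all OVX values. Car2, which osteoclasts also use to acidify bone, fell as well (-1.17 ± 0.16). Car1, Gfi1b and Car2 did not pass in the limma fit of 15 libraries (adjusted p = 0.120, 0.183 and 0.235). Of 19 genes of heme synthesis and iron uptake, 12 fell and 0 rose (median -0.84), 3 of them also in the fit of 15 libraries. The mitochondrial transporter Abcb10 had 51.2, 49.8 and 46.7 FPKM in J, against 107, 115 and 91.0 FPKM in OVX (-1.06 ± 0.12). The mitochondrial iron importer Slc25a37 had 124, 143 and 119.7 FPKM in J, against 263, 267 and 222 FPKM in OVX (-0.95 ± 0.13). The transferrin receptor Tfrc had 132, 149 and 151 FPKM in J, against 307, 297 and 247 FPKM in OVX (-0.97 ± 0.13). Among 4 globin genes tested only the adult beta globin Hbb passed, with 1249.9, 1432 and 1596 FPKM in J, against 3405, 3088 and 2253 FPKM in OVX (-1.02 ± 0.21, adjusted p = 0.0363). Hbb did not pass in the limma fit of 15 libraries (adjusted p = 0.322). The alpha globin Hba-a1 had 14596, 13506 and 17356 FPKM in J, against 33262, 30118 and 24889.5 FPKM in OVX (-0.96 ± 0.28, adjusted p = 0.0735), with no overlap and no call, Hba-a3 was at -0.20 ± 0.30 and the embryonic Hbe1 at -0.49 ± 0.26. Reads of globin genes may be split between near-identical copies, so single globin values are uncertain. Globins made up 3.73% ± 0.428 in J and 7.35% ± 1.04 in OVX (SD, n = 3 each) of summed FPKM (exact two-sided permutation p = 0.1, the smallest that 3 against 3 allows).

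Part of the cell cycle genes fell in J. Of 40 genes of mitosis and the spindle, 20 fell and 0 rose (median -0.73), and of 44 of DNA replication 12 fell and 0 rose (median -0.57). The fit of 15 libraries called 13 and 10 of these lists lower. Mki67, the proliferation marker Ki-67, had 75.0, 70.5 and 70.8 FPKM in J, against 131, 155 and 108 FPKM in OVX (-0.84 ± 0.15, adjusted p = 0.0270). Ccnb1, cyclin B1, which drives entry into mitosis, had 28.6, 19.5 and 21.8 FPKM in J, against 44.1, 44.3 and 43.5 FPKM in OVX (-0.91 ± 0.15), Ccnb2 was at -0.88 ± 0.16 and the chromosome motor Kif4a at -0.80 ± 0.14. Rrm1, the large subunit of ribonucleotide reductase, had 64.6, 50.2 and 60.7 FPKM in J, against 96.1, 100.4 and 95.1 FPKM in OVX (-0.73 ± 0.13), thymidylate synthase Tyms was at -0.79 ± 0.14, thymidine kinase Tk1 at -0.80 ± 0.12, and the helicase subunit Mcm2 at -0.90 ± 0.17. Of these, Ccnb1, Kif4a, Rrm1, Tyms and Mcm2 also passed with all 15 libraries. J 2 was the lowest library of both lists, with a level (mean log2(FPKM + 1) over members) of 4.24 for mitosis against 4.74 and 4.48 in J 1 and J 3, and 5.27, 5.29 and 5.02 in OVX. Of 29 histone genes, 0 passed in limma (1 higher and 4 lower at an unadjusted p under 0.05, 0 and 0 called in voom).

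Neutrophil genes were not called, and J 2 was the lowest library. The list of 24 genes was at 7.55, 6.61 and 7.86 in J and 7.86, 7.95 and 7.90 in OVX. J 2 was far the lowest, J 1 also lay below every OVX library, and J 3 was level with OVX 1. Of the 24 members 23 had a fold change below 0 (median -0.54, -0.77 to -0.14 with 1 library left out). Elane, neutrophil elastase, had 181, 81.9 and 149 FPKM in J, against 268, 290.4 and 209 FPKM in OVX (-0.96 ± 0.30, adjusted p = 0.0854). Ctsg, cathepsin G, was at -0.93 ± 0.27, Lcn2, a siderophore-binding protein of granules, at -0.62 ± 0.17, and the formyl peptide receptor Fpr1 at -0.55 ± 0.17, and 0 of the 24 genes passed in limma (0 higher and 6 lower at an unadjusted p under 0.05, 0 and 0 called in voom). Among 13 genes of mast cells, basophils and eosinophils, Prg2, the major basic protein of eosinophils, fell (85.5, 103 and 72.3 FPKM in J, against 136, 125 and 163 FPKM in OVX, -0.70 ± 0.17). That share was 7.69%, beside 4.40% of all genes tested.

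**Figure D2:**
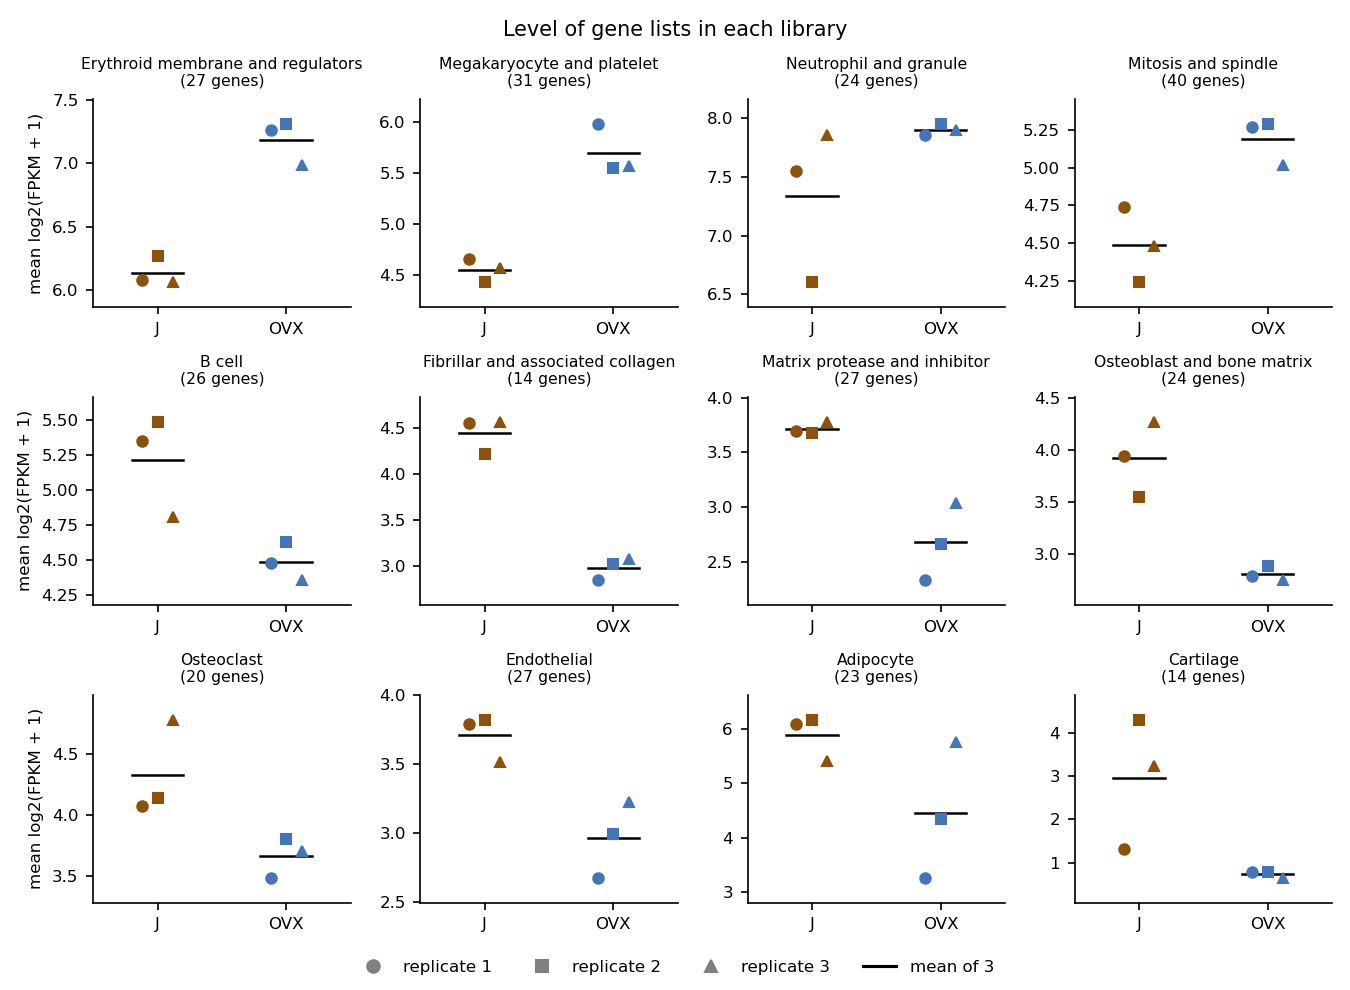
Level of 12 gene lists in each library, as the mean of log2(FPKM + 1) over the tested members (y axis), with J left of OVX, 1 point per library and a bar at the mean of 3. Platelet, erythroid and mitosis lists lie lower in every J library, collagen, protease, osteoblast and endothelial lists lie higher, and J 2 of the neutrophil list, OVX 3 of the adipocyte list and J 1 of the cartilage list stand apart from their groups.

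In the other direction, fibrillar and associated collagens were higher in J. Of 14 tested, 11 rose and 0 fell (median 1.45, 1.36 to 1.63 with 1 library left out), and 6 rose in the fit of 15 libraries. Col1a1, the main collagen chain of bone, had 572, 531 and 261 FPKM in J, against 164, 45.6 and 35.3 FPKM in OVX (2.72 ± 0.59, adjusted p = 0.0388). Its partner Col1a2 had 508, 438 and 249 FPKM in J, against 153, 56.1 and 45.7 FPKM in OVX (2.36 ± 0.48). J 3 was the lowest of J and OVX 1 the highest of OVX in both, the groups did not overlap, and neither passed with all 15 libraries. Col5a2, a chain of the type V collagen that starts fibrils, had 30.5, 26.0 and 26.9 FPKM in J, against 10.6, 6.01 and 7.02 FPKM in OVX (1.73 ± 0.20, adjusted p = 0.0180). Col5a1 had 12.1, 9.52 and 9.85 FPKM in J, against 2.96, 3.71 and 3.76 FPKM in OVX (1.36 ± 0.15). Both also passed with 15 libraries, as did Col3a1 (1.91 ± 0.34), Col6a2 (1.15 ± 0.19) and Col6a3 (1.78 ± 0.40). Col5a3 (1.34 ± 0.29), Col6a1 (1.06 ± 0.22), Col12a1 (1.79 ± 0.39) and Col27a1 (1.54 ± 0.34) rose in the fit of 6 libraries and not in the wider one, and Col16a1 was the reverse (1.28 ± 0.32, adjusted p = 0.0530 with 6 libraries).

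Part of the genes that process collagen rose. Of 23 such genes, 10 rose, 0 fell and 13 were not called (median 0.80), 7 with all 15 libraries. Serpinh1, the collagen chaperone HSP47, had 86.0, 69.6 and 85.9 FPKM in J, against 21.5, 29.2 and 35.6 FPKM in OVX (1.48 ± 0.20, adjusted p = 0.0194). Fkbp10, a prolyl isomerase of procollagen, had 13.3, 11.2 and 15.1 FPKM in J, against 4.64, 4.58 and 5.87 FPKM in OVX (1.23 ± 0.16). Pcolce, which helps cut the C-propeptide, had 41.3, 31.5 and 41.6 FPKM in J, against 9.74, 11.0 and 16.8 FPKM in OVX (1.56 ± 0.22), and P4ha2, a prolyl hydroxylase, was at 1.15 ± 0.18. Of 32 matrix glycoproteins and proteoglycans, 12 rose, and the 1 that fell was Thbs1, described with the platelet genes. Sparc, osteonectin, had 609, 596 and 421 FPKM in J, against 138, 135 and 192 FPKM in OVX (1.80 ± 0.21). Bgn, biglycan, had 96.3, 81.2 and 85.9 FPKM in J, against 27.6, 32.9 and 35.0 FPKM in OVX (1.44 ± 0.13), Ltbp3 was at 1.49 ± 0.25 and the elastic fibre protein Fbln5 at 1.02 ± 0.13, all 4 called in both fits. Fmod, fibromodulin, had 11.1, 15.1 and 27.8 FPKM in J, against 0.460, 2.64 and 1.39 FPKM in OVX (2.93 ± 0.42) and Thbs2 had 4.73, 4.30 and 8.28 FPKM in J, against 0.240, 0.653 and 0.370 FPKM in OVX (2.22 ± 0.26). Both were near or under 1 FPKM in some OVX libraries, where the pseudocount of 1 understates the fold, and neither passed with 15 libraries. Of 13 basement membrane genes 4 rose, the laminins Lamb1 (0.98 ± 0.23) and Lamb2 (1.39 ± 0.32), Col15a1 (1.19 ± 0.25) and agrin, Agrn (0.97 ± 0.20).

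Of 27 matrix proteases and their inhibitors, 12 rose and 0 fell (median 1.10), 5 with all 15 libraries. Mmp2, gelatinase A, had 24.9, 19.0 and 26.2 FPKM in J, against 4.09, 3.93 and 4.60 FPKM in OVX (2.22 ± 0.15, adjusted p = 0.0180), and the 3 values of each group lay close together. Htra1, a secreted serine protease, had 20.5, 29.1 and 26.6 FPKM in J, against 3.56, 5.88 and 5.83 FPKM in OVX (2.13 ± 0.21). The inhibitors Timp1 and Serpine2 and the serpin Serpinf1 rose as well. Timp1, which blocks matrix metalloproteinases, had 21.4, 28.2 and 31.1 FPKM in J, against 6.31, 7.57 and 9.48 FPKM in OVX (1.67 ± 0.19). Serpine2, protease nexin 1, had 78.6, 78.6 and 102 FPKM in J, against 36.9, 39.2 and 35.7 FPKM in OVX (1.18 ± 0.14). Serpinf1, the secreted factor PEDF whose loss causes brittle bones in humans, had 45.5, 30.6 and 28.2 FPKM in J, against 8.46, 4.89 and 6.21 FPKM in OVX (2.25 ± 0.24). Mmp2, Timp1 and Serpinf1 also passed with all 15 libraries, and Htra1 and Serpine2 did not.

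Called osteoblast genes included matrix proteins and others such as the cadherin Cdh11, and the regulators Runx2 and Sp7 were not called. Of 24 tested, 8 rose and 0 fell (median 1.10, 0.78 to 1.38 with 1 library left out), and summed FPKM was 1605 to 3149.7 in J and 491 to 660.3 in OVX. In the limma fit of 15 libraries 0 of the 24 passed, with 10 higher and 1 lower at an unadjusted p under 0.05. Bglap, osteocalcin, had 807, 574 and 834 FPKM in J, against 173, 32.9 and 45.1 FPKM in OVX (3.49 ± 0.57, adjusted p = 0.0253). Spp1, osteopontin, had 304, 574 and 1336 FPKM in J, against 48.1, 107 and 61.4 FPKM in OVX (3.16 ± 0.54, adjusted p = 0.0263), with J 3 the highest. Cthrc1, a secreted protein of matrix-forming cells, had 6.03, 7.57 and 5.50 FPKM in J, against 2.00, 0.653 and 0.50 FPKM in OVX (1.91 ± 0.29) and Cdh11, osteoblast cadherin, had 35.8, 35.7 and 53.9 FPKM in J, against 12.9, 19.9 and 20.7 FPKM in OVX (1.18 ± 0.23). The regulators did not pass: Runx2 had 13.3, 7.17 and 17.8 FPKM in J, against 5.74, 6.46 and 7.74 FPKM in OVX (0.77 ± 0.30, adjusted p = 0.137) and Sp7, osterix, had 4.96, 2.77 and 9.97 FPKM in J, against 1.55, 2.71 and 1.4 FPKM in OVX (1.15 ± 0.39, adjusted p = 0.106). In both, J 2 was inside or near the OVX range and J 1 and J 3 were above it. Whether matrix genes and regulators differ in their fold change was not tested.

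Osteocytes, the cells buried in bone, gave 0 calls in limma among 11 genes (2 higher and 1 lower at an unadjusted p under 0.05, 1 and 0 called in voom), with list levels of 3.38, 1.60 and 3.07 in J and 2.43, 2.33 and 2.05 in OVX. J 2 was the lowest of the 6. Sost, the Wnt inhibitor sclerostin, had 32.5, 0.722 and 14.0 FPKM in J, against 33.2, 27.5 and 7.32 FPKM in OVX (-1.08 ± 1.09, adjusted p = 0.535). Dmp1, which directs mineral, had 80.5, 7.66 and 69.7 FPKM in J, against 31.5, 20.1 and 13.5 FPKM in OVX (0.77 ± 0.84). Fgf23, the phosphate hormone, had 4.77, 0.0734 and 7.71 FPKM in J, against 0.487, 0.267 and 0.556 FPKM in OVX (1.4 ± 0.72). Mepe (0.51 ± 0.84), Phex (0.59 ± 0.37), Pdpn (0.61 ± 0.42), Dkk1 (0.55 ± 0.45), Irx5 (0.86 ± 0.22), Pdzrn3 (1.41 ± 0.38), Fam20c (-0.26 ± 0.20) and Reln (-0.83 ± 0.26) did not pass either. Pdzrn3 passed with 15 libraries.

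Osteoclast genes ran higher in J as a list, and the called members went both ways. List levels were 4.07, 4.14 and 4.78 in J and 3.49, 3.81 and 3.71 in OVX, with a median fold change of 0.58. Of the members, 13 had every J library above every OVX library and 3 below (21.8% and 15.2% of all genes tested did). Summed FPKM overlapped, at 1039 to 1896.5 in J and 1270 to 1552 in OVX. Of 20 tested, 5 rose and 2 fell, and 0 passed in limma with all 15 libraries (8 higher and 0 lower at an unadjusted p under 0.05). The 2 that fell were Itgb3 and Car2, which the platelet and erythroid lists also hold. Ctsk, cathepsin K, the main collagen-cutting protease of osteoclasts, had 225, 426 and 699 FPKM in J, against 29.0, 110.0 and 64.7 FPKM in OVX (2.76 ± 0.56, adjusted p = 0.0336). Acp5, the phosphatase TRAP, had 97.5, 131 and 256 FPKM in J, against 25.8, 52.1 and 38.9 FPKM in OVX (1.96 ± 0.39, adjusted p = 0.0331). Atp6v0d2, a subunit of the proton pump, had 6.27, 8.42 and 22.3 FPKM in J, against 0.454, 2.90 and 1.72 FPKM in OVX (2.23 ± 0.51). In all 3 genes J 3 was the highest and J 1 the lowest of J, and the groups did not overlap. Among 11 ligands and receptors that steer osteoclasts, 5 rose and 0 fell. Tnfrsf11b, the decoy receptor osteoprotegerin, had 3.86, 5.59 and 8.69 FPKM in J, against 0.958, 0.581 and 0.351 FPKM in OVX (2.07 ± 0.28, adjusted p = 0.0205). Tnfrsf11a, the receptor RANK, had 1.63, 2.7 and 6.01 FPKM in J, against 0.271, 0.498 and 0.618 FPKM in OVX (1.49 ± 0.36). Their ligand Tnfsf11 had 6.14, 3.56 and 3.89 FPKM in J, against 1.55, 1.35 and 4.20 FPKM in OVX (0.78 ± 0.34, adjusted p = 0.171), with OVX 3 inside the J range. Il34, a ligand of the receptor CSF1R, had 12.7, 13.9 and 5.42 FPKM in J, against 2.32, 2.03 and 1.69 FPKM in OVX (1.87 ± 0.32, adjusted p = 0.0263), whereas the other ligand Csf1 (21.3, 16.6 and 27.2 FPKM in J, against 7.78, 13.0 and 18.2 FPKM in OVX, 0.74 ± 0.31) and the receptor Csf1r (20.6, 25.1 and 41.6 FPKM in J, against 17.7, 18.4 and 16.7 FPKM in OVX, 0.63 ± 0.24) did not pass. Tnfsf12, the cytokine TWEAK (0.98 ± 0.18), and Lgr4 (0.56 ± 0.13) rose, and Tnfrsf12a (0.46 ± 0.25), Il1b (0.33 ± 0.27) and Traf6 (-0.22 ± 0.29) did not pass. Il34 and Tnfsf12 held with all 15 libraries.

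**Figure D3:**
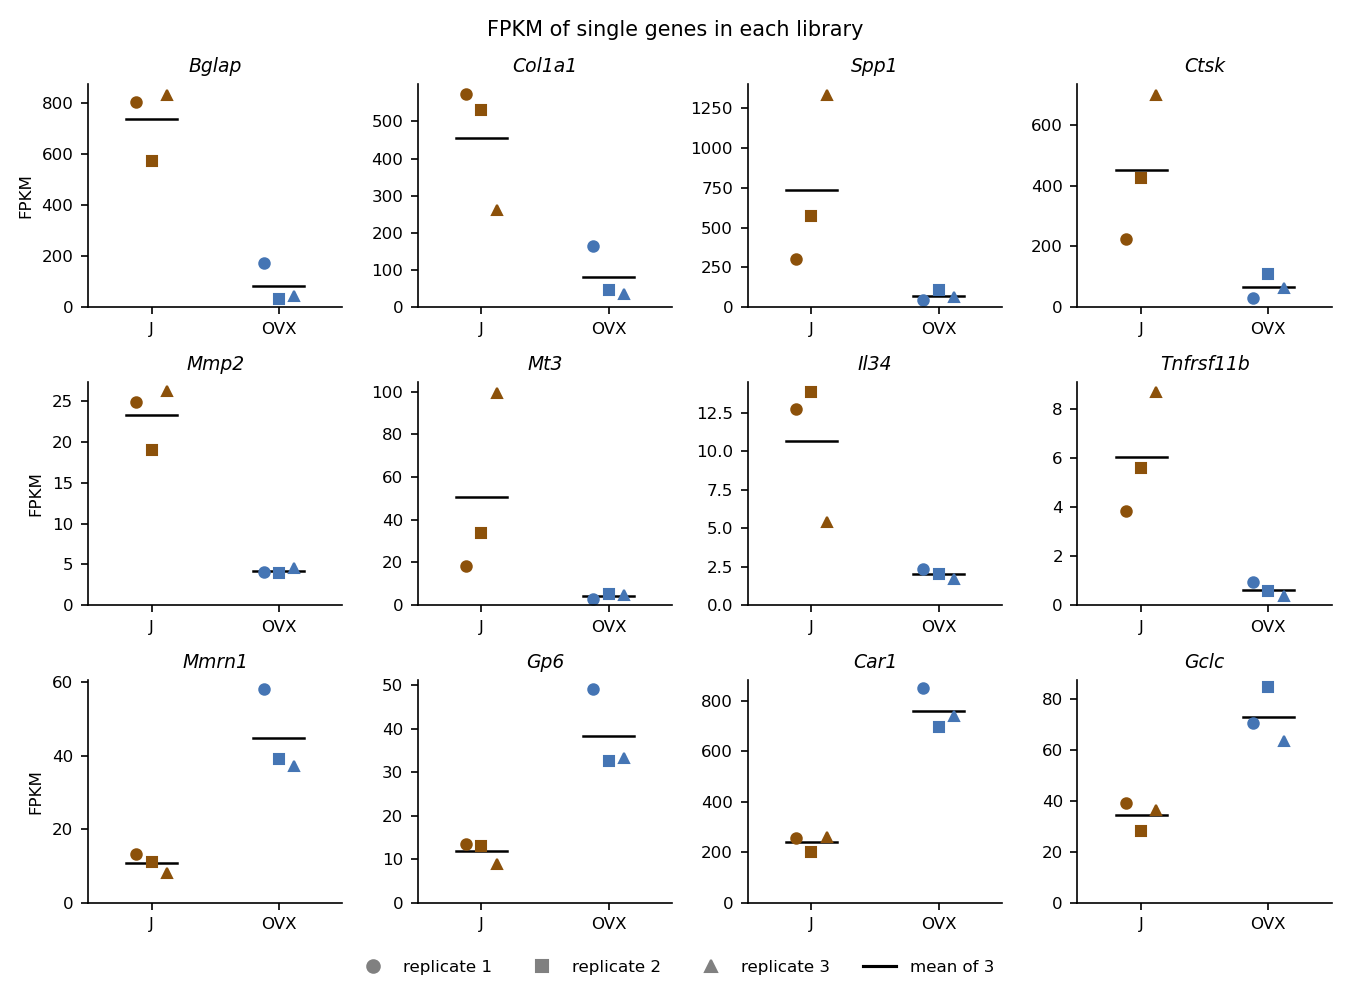
FPKM (y axis, linear from 0) of 12 genes in each J and OVX library, J left of OVX, with a bar at the mean of 3. The 8 genes from Bglap to Tnfrsf11b lie higher in every J library, and Mmrn1, Gp6, Car1 and Gclc lie lower in every J library.

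Part of the vessel genes rose. Shares that rose were 33.3% of endothelial, 23.1% of pericyte and smooth muscle and 19.0% of marrow stromal genes, beside 4.80% of all genes tested. Of 27 endothelial genes 9 rose, 4 of them with all 15 libraries, 17 were not called, and summed FPKM overlapped, at 449.8 to 610.4 in J and 477 to 650.5 in OVX. The 1 that fell, the water channel Aqp1, is also a red cell membrane protein (-0.97 ± 0.23, named after its value was seen). Sox18, a regulator of vessel formation, had 12.4, 15.8 and 9.14 FPKM in J, against 3.83, 4.31 and 2.33 FPKM in OVX (1.58 ± 0.25). Sox17 had 8.00, 7.08 and 5.42 FPKM in J, against 1.34, 2.02 and 3.09 FPKM in OVX (1.34 ± 0.24). Egfl7, a protein secreted by endothelium, had 21.2, 16.2 and 17.9 FPKM in J, against 5.97, 7.49 and 9.57 FPKM in OVX (1.18 ± 0.19). The receptor Tie1 had 34.4, 27.4 and 24.8 FPKM in J, against 16.2, 15.9 and 19.3 FPKM in OVX (0.71 ± 0.15). Of 13 pericyte and smooth muscle genes 3 rose, the channel subunit Abcc9 (0.92 ± 0.21), Lmod1 (0.99 ± 0.19) and the endothelin receptor Ednra (0.91 ± 0.20). The smooth muscle actin Acta2 had 42.1, 29.9 and 12.9 FPKM in J, against 2.72, 10.6 and 15.7 FPKM in OVX (1.56 ± 0.62, adjusted p = 0.144) and was not called. Of 21 genes of the marrow stroma 4 rose, among them Pdgfrb (40.7, 25.4 and 41.4 FPKM in J, against 7.38, 10.7 and 17.8 FPKM in OVX, 1.55 ± 0.32), Pdgfra (0.92 ± 0.16) and Prrx1 (1.57 ± 0.36), which mark mesenchymal cells. The niche factor Cxcl12, which holds blood stem cells in place, had 452, 375 and 476 FPKM in J, against 182, 274 and 368 FPKM in OVX (0.71 ± 0.26, adjusted p = 0.122). Stem cell factor, named Kitlg in the files, had 21.3, 33.2 and 28.7 FPKM in J, against 12.9, 17.1 and 20.4 FPKM in OVX (0.69 ± 0.22, adjusted p = 0.0876).

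Fat, cartilage and muscle markers varied by library and gave 0 calls in limma. The 23 adipocyte genes were at a level of 6.09, 6.17 and 5.41 in J and 3.26, 4.35 and 5.77 in OVX, with summed FPKM of 2267 to 4851 in J and 419 to 3218 in OVX, and none was at 0 in all 6 libraries (11 higher and 0 lower at an unadjusted p under 0.05, 0 and 0 called in voom). OVX 3 lay within the J range and OVX 1 far below it. Adipoq, adiponectin, had 454, 753 and 337 FPKM in J, against 22.1, 130.2 and 398 FPKM in OVX (2.19 ± 0.95, adjusted p = 0.168) and Pparg, the regulator of fat cells, 21.6, 16.2 and 15.8 FPKM in J, against 5.75, 7.61 and 14.6 FPKM in OVX (0.95 ± 0.31, adjusted p = 0.0949). The 14 cartilage genes tested of 21 listed were at 1.32, 4.30 and 3.24 in J and 0.78, 0.79 and 0.65 in OVX, with summed FPKM of 59.5 to 503 in J and 11.4 to 21.8 in OVX (10 higher and 0 lower at an unadjusted p under 0.05, 1 and 0 called in voom). Prg4, the lubricin of joint surfaces, had 10.7, 166 and 81.7 FPKM in J, against 1.15, 7.36 and 2.36 FPKM in OVX (3.80 ± 0.98, adjusted p = 0.0560). Ecrg4, a secreted peptide precursor abundant in cartilage, which stands in no list, rose, with 3.86, 54.9 and 19.5 FPKM in J, against 0.768, 0.779 and 0.177 FPKM in OVX (3.52 ± 0.80, adjusted p = 0.0423). Its J values ran in the order of the cartilage list, with J 2 the highest and J 1 the lowest, which 3 libraries cannot show to be a link. Ecrg4 did not pass with 15 libraries. The 14 muscle genes were at 1.95, 3.14 and 1.21 in J and 0.85, 0.93 and 3.04 in OVX, highest in J 2 and OVX 3 (1 higher and 0 lower at an unadjusted p under 0.05, 0 and 0 called in voom). Cartilage, and fat apart from OVX 3, thus ran higher in J beside the collagen, matrix and vessel genes above, and the part of such tissue in those results was not tested.

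Few immune genes were called. The share that rose was 11.5% of B cell and of macrophage genes, 15% of complement and 11.1% of interferon response genes. Of all genes tested 4.80% rose. Of 26 B cell genes 3 rose, among them Mzb1, a chaperone of antibody-making cells (1.00 ± 0.24), and the plasma cell marker Sdc1 (10.4, 16.1 and 19.1 FPKM in J, against 5.25, 5.28 and 5.74 FPKM in OVX, 1.30 ± 0.21), and none with 15 libraries. The B cell list had a median of 0.64 and summed FPKM of 2175 to 4196 in J and 1329.9 to 1919 in OVX, without overlap. Of 22 T and NK cell genes Cd5 rose (0.89 ± 0.20), a share of 4.55% beside 4.80% of all genes tested. Of 26 macrophage genes 3 rose, among them Apoe, apolipoprotein E (91.7, 97.8 and 114 FPKM in J, against 28.3, 40.4 and 44.5 FPKM in OVX, 1.42 ± 0.19, adjusted p = 0.0194) and Ms4a7 (1.12 ± 0.20). In the macrophage list 18 members had a fold change above 0 and 8 below it (median 0.24). Its summed FPKM was lower in every J library, at 2155 to 3010 in J and 3177 to 3214 in OVX. MHC class II genes gave 0 calls in limma among 16 (9 higher and 0 lower at an unadjusted p under 0.05, 0 and 0 called in voom), although all 3 J libraries lay above OVX in list level and J 2 was the highest. Their median was 0.92, and summed FPKM was 545 to 2102 in J and 293 to 353 in OVX. Cd74, the invariant chain, had 311, 1076 and 278 FPKM in J, against 129, 135 and 157 FPKM in OVX (1.69 ± 0.49, adjusted p = 0.0723), and the list was at 3.89, 5.25 and 3.80 in J and 3.24, 3.19 and 3.44 in OVX. Of 20 complement genes 3 rose and 0 fell, among them the C1 inhibitor Serping1 (1.03 ± 0.20) and factor B, Cfb (1.02 ± 0.24). The complement list was split, with 10 members above 0 and 10 below it (median 0.12). Of 27 interferon response genes Irf1 (0.67 ± 0.13), Ifi44 (0.97 ± 0.16) and Ifi27 (0.71 ± 0.15) rose. Of 30 chemokines and receptors Cxcl16 (1.18 ± 0.17) and Ccl24 (1.28 ± 0.26) rose, and Ackr1, the Duffy receptor of red cells and venules, fell (10.9, 10.1 and 13.0 FPKM in J, against 26.8, 28.0 and 19.3 FPKM in OVX, -1.05 ± 0.17). These shares, 6.67% higher and 3.33% lower, were near the 4.80% and 4.40% of all genes tested.

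Among signalling pathways, 4 of 19 Notch genes rose (21.1%, beside 4.80% of all genes tested), and all 4 also with all 15 libraries. Hey1, a direct target, had 3.02, 2.44 and 2.56 FPKM in J, against 0.946, 0.822 and 0.639 FPKM in OVX (1.03 ± 0.17, adjusted p = 0.0253). The target Hes1 had 18.1, 15.7 and 20.2 FPKM in J, against 3.56, 8.40 and 9.38 FPKM in OVX (1.31 ± 0.31). The ligand Jag1 had 6.23, 6.16 and 8.02 FPKM in J, against 1.84, 1.95 and 4.01 FPKM in OVX (1.16 ± 0.25). The endothelial receptor Notch4 had 8.38, 4.82 and 7.40 FPKM in J, against 2.67, 1.75 and 3.36 FPKM in OVX (1.13 ± 0.25). Of 39 BMP and TGF-beta genes 5 rose (12.8%, beside 4.80% of all genes tested) and 2 fell (5.13%, near the 4.40% of all genes tested). The inhibitory Smad7 had 11.1, 12.2 and 11.6 FPKM in J, against 4.39, 6.09 and 5.92 FPKM in OVX (0.97 ± 0.15) and rose, as did Ltbp3, while Ltbp1 and the TGF-beta-induced Tgfbi (13.0, 14.0 and 14.6 FPKM in J, against 20.3, 24.6 and 27.3 FPKM in OVX, -0.75 ± 0.14) fell. Of 29 Wnt genes 2 rose (6.90%, near the 4.80% of all genes tested), both secreted inhibitors. Sfrp1 had 22.5, 22.6 and 22.7 FPKM in J, against 9.17, 11.1 and 13.0 FPKM in OVX (0.98 ± 0.14, adjusted p = 0.0225), nearly the same in the 3 J libraries, and Wif1 had 11.0, 13.9 and 26.2 FPKM in J, against 5.11, 4.50 and 4.10 FPKM in OVX (1.61 ± 0.29). Of 15 genes of the insulin-like growth factor axis, Igf2 (9.91, 8.99 and 8.96 FPKM in J, against 1.71, 4.90 and 2.44 FPKM in OVX, 1.43 ± 0.28), Igfbp6 (1.93 ± 0.35) and the IGFBP-cutting protease Htra1 rose, and Igf1 did not pass (23.0, 24.7 and 12.7 FPKM in J, against 5.02, 15.7 and 26.9 FPKM in OVX, 0.53 ± 0.55, adjusted p = 0.543). Of 8 estrogen-responsive genes tested of 18 listed, Ccnd1, cyclin D1, rose (8.44, 7.25 and 11.7 FPKM in J, against 2.61, 3.11 and 3.79 FPKM in OVX, 1.27 ± 0.20). The estrogen receptor gene Esr1 was under the filter on low values, at 0.951, 0.312 and 0.325 FPKM in J and 0.133, 0.303 and 0.638 FPKM in OVX. Of 20 immediate early genes Klf2, a factor induced by blood flow in vessels, rose (14.3, 19.5 and 11.8 FPKM in J, against 6.22, 7.06 and 5.89 FPKM in OVX, 1.11 ± 0.19), and Junb was listed at 0 in all 6 libraries. That share, 5%, was near the 4.80% of all genes tested. Of 17 clock genes Nr1d2 (1.24 ± 0.22) and Bhlhe41 (1.00 ± 0.22) rose. The shares that rose were 20% for the insulin-like growth factor axis, 12.5% (1 gene) for estrogen-responsive genes and 11.8% for clock genes. The share over all genes tested was 4.80%.

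Few genes of stress and metabolism passed, beside 4.80% higher and 4.40% lower of all genes tested. Of 22 targets of the aryl hydrocarbon receptor and of NRF2, 3 fell and 1 rose, with a median of 0.07. The 3 that fell make or use glutathione. Gclc, the catalytic subunit of the enzyme that limits glutathione synthesis, had 38.9, 28.2 and 36.3 FPKM in J, against 70.4, 84.5 and 63.5 FPKM in OVX (-1.06 ± 0.17, adjusted p = 0.0246). Its modifier subunit Gclm had 42.4, 55.0 and 42.9 FPKM in J, against 90.0, 105 and 75.9 FPKM in OVX (-0.93 ± 0.17, adjusted p = 0.0272), with no overlap in either. The glutathione transferase Gsta4 had 4.64, 6.91 and 5.87 FPKM in J, against 16.1, 13.8 and 8.78 FPKM in OVX (-1.01 ± 0.24). All 3 held with 15 libraries. Ephx1, microsomal epoxide hydrolase, rose (11.9, 11.8 and 10.7 FPKM in J, against 4.37, 4.85 and 7.37 FPKM in OVX, 0.96 ± 0.19). Of 27 genes of cholesterol and fatty acid synthesis 1 fell, Fads2, the desaturase that begins the making of long-chain polyunsaturated fatty acids from linoleic and linolenic acid. It had 6.87, 8.49 and 6.51 FPKM in J, against 17.2, 21.7 and 14.8 FPKM in OVX (-1.18 ± 0.17, adjusted p = 0.0228) and held with 15 libraries. Of 8 metallothionein and zinc genes, Mt3 rose to 18.2, 33.6 and 99.5 FPKM in J, against 2.62, 4.98 and 4.80 FPKM in OVX (3.02 ± 0.57, adjusted p = 0.0299) and the zinc importer Slc39a8 fell (-0.52 ± 0.12). Mt1 (-0.18 ± 0.23), Mt2A (0.53 ± 0.44), Mtf1 (-0.44 ± 0.21), Slc30a1 (-0.55 ± 0.20), Slc30a4 (0.70 ± 0.21) and Slc39a14 (0.56 ± 0.24) did not pass. Mt3 was thus the metallothionein that passed, and its J values ran in the order of Spp1 and Ctsk, lowest in J 1 and highest in J 3. An order shared over 3 libraries cannot show that these genes are linked, and a link was not tested.

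Mitochondrial transcripts and nuclear respiratory genes did not run together. Mitochondrially encoded genes made up 21.5% ± 4.45 in J and 12.7% ± 1.15 in OVX (SD, n = 3 each) of summed FPKM (exact two-sided permutation p = 0.1, the smallest possible here), with 0 of 13 called in limma (11 higher and 0 lower at an unadjusted p under 0.05, 1 and 0 called in voom) and a median of 0.85. Of 45 nuclear-encoded genes of the chain 3 fell, Cox5b (-0.55 ± 0.11), Cox7b (68.9, 69.4 and 70.1 FPKM in J, against 107, 99.6 and 105 FPKM in OVX, -0.58 ± 0.10) and Atp5f1b (-0.58 ± 0.13). Hk1, the hexokinase of red cells and other tissues, had 22.5, 20.0 and 22.2 FPKM in J, against 40.7, 40.1 and 38.6 FPKM in OVX (-0.86 ± 0.11, adjusted p = 0.0191) and was the 1 of 22 glycolysis genes that fell. The inducible chaperone Hsp90aa1 fell (36.8, 38.8 and 28.1 FPKM in J, against 78.9, 75.0 and 75.3 FPKM in OVX, -1.14 ± 0.14), while the small heat shock protein Hspb1 rose (9.44, 11.5 and 10.1 FPKM in J, against 3.00, 5.59 and 5.41 FPKM in OVX, 1.04 ± 0.22). Of 28 chaperones of the endoplasmic reticulum, calnexin, Canx, fell (-0.74 ± 0.13) and Kdelr3 rose (0.71 ± 0.15), and of 81 ribosomal protein genes Rps27l fell (-0.73 ± 0.13). Members that fell made up 6.67% of the nuclear-encoded chain, 4.55% of glycolysis, 3.57% of these chaperones and 1.23% of ribosomal protein genes. Of 13 heat shock genes 1 fell and 1 rose (7.69% each way), and 3.57% of the chaperones rose. Of all genes tested 4.40% fell and 4.80% rose, so these calls describe single genes.

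Among the 12 genes with the largest falls that have not been described, Evc2, a ciliary protein of the hedgehog pathway, had 0.927, 0.736 and 0.901 FPKM in J, against 8.64, 6.41 and 3.16 FPKM in OVX (-1.85 ± 0.31, adjusted p = 0.0253). Clca5 had 0.750, 0.990 and 1.17 FPKM in J, against 6.44, 7.29 and 3.36 FPKM in OVX (-1.72 ± 0.27) and Tlcd4 had 7.54, 7.03 and 3.87 FPKM in J, against 19.9, 25.1 and 18.3 FPKM in OVX (-1.66 ± 0.24), and all 3 also passed with 15 libraries. Pla2g2a, a secreted phospholipase that acts on bacterial membranes, had 46.6, 62.2 and 52.4 FPKM in J, against 278, 141 and 162 FPKM in OVX (-1.78 ± 0.26, adjusted p = 0.0225) and did not pass in the wider fit. The rest of these 12 were the platelet genes Mmrn1, Ppbp, F5, Pde5a, Rab27b, Itgb3 and Tubb1 and the red cell gene Car1. The 12 with the largest rises were Ecrg4, Bglap, Spp1, Mt3, Fmod, Ctsk, Col1a1, Col1a2, Serpinf1, Atp6v0d2, Thbs2 and Mmp2, of bone, matrix and cartilage except Mt3.

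The remaining groups of the series place these levels, in the fit of 15 libraries, over the same 13767 genes. Those genes were selected on J and OVX values, so genes expressed mainly in Sham, P or PJ may be missing from these counts. J had 3406 genes above Sham (24.7%) and 2494 below it (18.1%), 446 above P (3.24%) and 563 below it (4.09%), and 870 above PJ (6.32%) and 1104 below it (8.02%). In J, 25 of 27 erythroid genes were above Sham, 1 above P and 24 above PJ, with median log2 differences of 4.20, 1.28 and 2.63. Of 40 mitosis genes 40 were above Sham, 30 above P and 36 above PJ, and of 31 platelet genes 21, 1 and 17 were. Of 14 collagens 9 were below Sham, 4 below P and 3 below PJ, of 27 endothelial genes 22, 2 and 6 were, and all 14 cartilage genes were below Sham and 0 below P or PJ. Osteoblast genes showed few differences, with 1 of 24 above and 2 below Sham, 0 above and 1 below P, and 1 above and 0 below PJ. Within these groups Bglap spread widely, with 34.0, 6.43 and 881 FPKM in Sham, 3620.5, 69.6 and 1047 in P and 1512, 732 and 123 in PJ. Mt3 had 13.2, 6.84 and 99.4 in Sham, 108, 64.4 and 83.7 in P and 79.7, 73.0 and 46.3 in PJ. Of 26 B cell genes, 19 were above Sham and 0 differed from P or PJ. Fads2 had 1.73, 3.47 and 5.47 FPKM in Sham, 5.62, 6.12 and 7.88 in P and 5.72, 4.75 and 3.56 in PJ, and Gclc had 15.8, 16.2 and 16.9, 21.9, 33.1 and 22.2 and 21.0, 15.3 and 20.8 in the same groups.

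**Figure D4:**
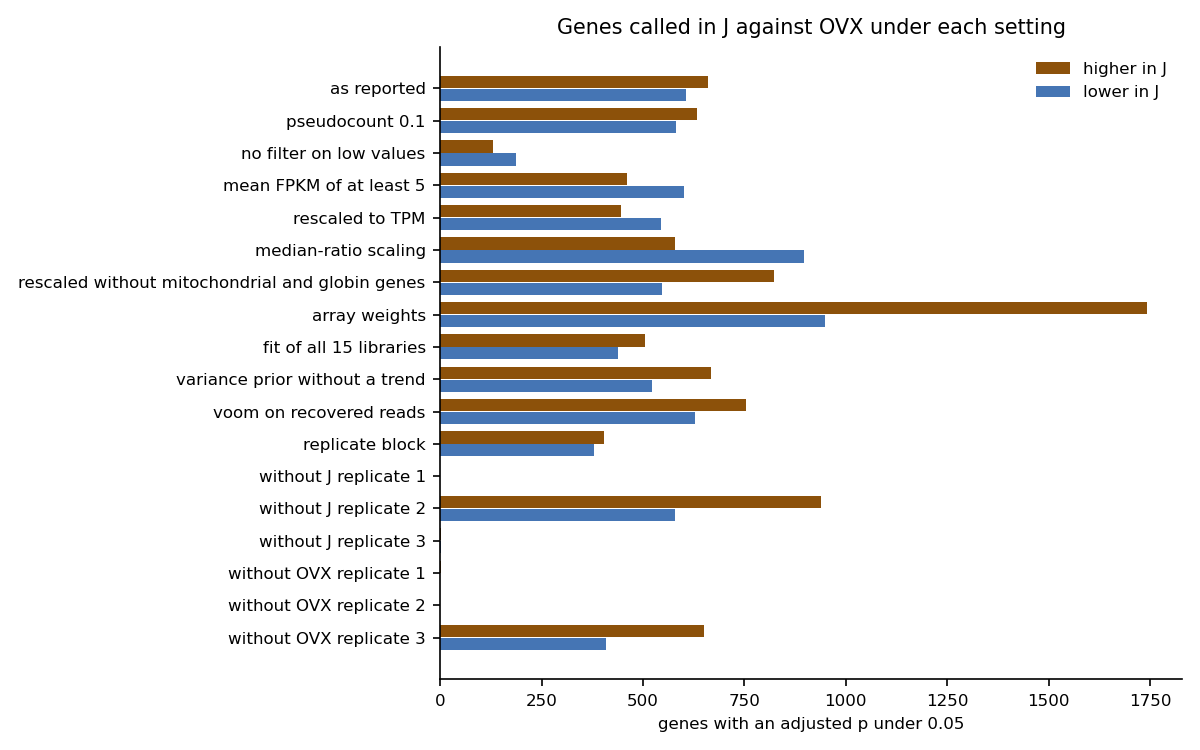
Genes called in J against OVX, higher or lower, at an adjusted p under 0.05 (x axis) in the analysis as reported and under each other setting (y axis). The count is 1742 and 949 with array weights and between 0 and 3 in all without J 1, J 3, OVX 1 or OVX 2.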

How the data were processed

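Polyadenylated RNA of rat femurs was sequenced, and titles and treatment labels gave the groups. TRIzol and a TruSeq kit were used, per the labels' protocols. The sources used here do not give the strand setting. STAR 2.7.11a, featureCounts 2.0.6 and fastp 0.23.4 and the build mRatBN7.2 are named, per the submitters' processing notes. The deposited files hold 1 value for each of 30454 genes, which is FPKM as the values show, although per the file headers the column carries the word count. A column named FPKM was empty in all 15 files. Gene names are those of the files, and 4319 genes had none. Promoter windows of build GRCr8 were matched by symbol, and 9703 of the genes tested had one.

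Depth was recovered from the steps in the deposited FPKM values, so the totals are inferred, and limits from counts cover counting error only. Values were analysed as log2(FPKM + 1), which understates the change of low genes. Genes averaging at least 1 FPKM over the 6 libraries entered limma 3.58.1 (R 4.3.3), with variances that follow mean expression, 4 residual degrees of freedom, two-sided tests and Benjamini-Hochberg adjustment at 0.05. J was set against Sham, P and PJ in a fit of all 15 libraries with 10 residual degrees of freedom. The 49 lists held 1231 names, of which 1195 were matched and 1071 tested, and 49 names stand in more than 1 list. The comparison, lists and rules were chosen with earlier results of these data known, and lists are described by counts and medians with no test.

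Named are the 12 called genes at each end of the fold changes that have a symbol and do not overlap between groups, at most 4 members per list, taken by smallest p, all members of lists of 16 genes or fewer, and bone, fat, niche and platelet genes fixed by name. Gp5, Gp6, Thbs1, Aqp1 and Kitlg fall outside this rule, and some genes that it names are not reported here. The scale was varied (a pseudocount of 0.1, TPM, median ratios, and rescaling without mitochondrial and globin genes), as was the filter (none, or a mean FPKM of 5). The fit was varied with array weights, all 15 libraries, a prior without a trend, voom on recovered reads, a replicate block and each library left out. Replicate numbers carry no stated pairing.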

Additional observations from a re-analysis of the deposited data

How the results depend on the processing

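As reported, J had 661 genes above and 606 below OVX. The counts were 131 and 188 without a filter on low values (22632 genes tested) and 1742 and 949 with array weights, which weighted J 1 at 1.84 and J 2 at 0.426. They stayed within 1.5 times the reported counts under the other 8 settings that kept all 6 libraries and had no block, from 446 to 823 higher and from 439 to 898 lower. Leaving out each library in turn gave 0 to 939 genes higher and 0 to 579 lower. With the replicate block 403 were higher and 378 lower. Deviations from the group mean of libraries of the same number correlated at 0.056, 0.231 and -0.0051, and those of unlike numbers at -0.193 to 0.163. With 3 libraries a group these values cannot show whether the numbers pair the samples. No pairing is stated, so the block is given only here. The cause of these differences was not tested. All of the 1267 called genes kept their sign under each of these settings that tested them (970 were tested at a mean FPKM of 5). The settings reuse the libraries on which these genes were selected. With all 6 libraries kept, members called lower in limma ranged from 3 (all 15 libraries) to 26 for the erythroid list and from 0 (no filter) to 25 (array weights) for mitosis. Members higher ranged from 2 to 12 for fibrillar collagens, 0 to 15 for osteoblasts, 0 to 9 for osteoclasts and 0 to 13 for endothelium. The highest were with array weights and the lowest without a filter, with 0 osteoblast and 0 osteoclast members higher in the fit of 15 libraries too. Leaving out 1 library turned the sign of 4 of the genes named here, none of them called: Traf6 ranged from -0.37 to 0.077, Igf1 from -0.081 to 1.03, Sost from -1.98 to 0.16 and Mepe from -0.14 to 1.52. At 3 libraries a group, a difference that misses the threshold is not shown to be absent.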

Other observations

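Each J library correlated best with another J library. Across the genes tested, J 1 had a Pearson correlation of log2(FPKM + 1) of 0.962 with J 3, 0.944 with J 2, and 0.951 with OVX 3. J 2 had 0.923 with J 3 and 0.889 to 0.924 with the OVX libraries. The OVX libraries had 0.957 to 0.971 with each other. These are correlations across genes, which are not independent replicates.

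Some genes that most cells use were listed at or near 0 in these files. Rpl38, a ribosomal protein, was listed at 0, 0.113 and 0 FPKM in J and at 0.693, 0.658 and 0 FPKM in OVX. Aldoa, aldolase A, had 0.269, 0.337 and 0.126 FPKM in J and 0.329, 0.213 and 0.266 FPKM in OVX. Values of 0 for single genes, Junb and Gp1bb among them, are therefore values of the files and not measures of absence.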
